A study of Rattus norvegicus with 82 samples.

Results

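The sarcoplasmic reticulum (SR) calcium cycling genes were taken as a list of 10 genes by their symbols: *Atp2a2*, *Pln*, *Sln*, *Ryr2*, *Casq2*, *Trdn*, *Hrc*, *Jph2*, *Slc8a1* and *Asph*. Of these, 9 are among the 17337 genes measured, and all 9 passed the filter on low counts that left 11954 genes for testing. *Asph* was not analysed here. The rule uses no measured value.

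RNA was sequenced from cardiomyocytes (CMs) that were isolated by collagenase digestion from each ventricle, right (RV) and left (LV), of 41 rats. This gave 82 libraries in 12 groups, 1 library per ventricle and animal. All animals were F1 offspring of Wistar Kyoto mothers and Lewis fathers, of both sexes, and the labels name no engineered allele. Pressure load came from a clip that did not narrow the vessel at first, on the pulmonary artery for the RV (PAB) or on the aorta for the LV (AOB), and sham-operated animals served as controls. The letter H marks the compensated stage with hypertrophy and F the decompensated stage with heart failure. By the age field of the labels, from which other text of the labels and the study's methods differ, the H animals were 11 weeks old and 7 weeks past surgery (7 Sham-H, 6 PAB-H and 6 AOB-H). The 9 Sham-F and the 7 AOB-F animals were 31 weeks old and 26 weeks past surgery, and the 6 PAB-F animals were 28 weeks old and 22 weeks past surgery, so that PAB-F animals were younger than their controls. The sham groups of the 2 stages therefore differed in age and in the time since surgery together.

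Each heartbeat starts with calcium entry from outside the cell, which opens the ryanodine receptor of the SR and releases the stored calcium onto the myofilaments. Relaxation follows when the SR calcium pump takes calcium back up and the sodium-calcium exchanger moves the rest out of the cell. *Atp2a2* encodes the pump SERCA2, phospholamban (*Pln*) and sarcolipin (*Sln*) are small membrane proteins that inhibit it, and *Ryr2* encodes the release channel. Calsequestrin 2 (*Casq2*) binds calcium inside the SR, triadin (*Trdn*) anchors it to the channel, and the histidine-rich calcium-binding protein (*Hrc*) lies in the same lumen. Junctophilin 2 (*Jph2*) tethers the SR to the transverse tubules, and *Slc8a1* encodes the exchanger NCX1. Sarcolipin is known mainly from atrial and not ventricular muscle, and low SERCA2 levels are a classical feature of failing myocardium.

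The region before the start of the gene is given for 3 members, since *Atp2a2* and *Pln*, the pump and its inhibitor, differed together between the ventricles while *Jph2* did not follow them. Such a sequence from RefSeq (GRCr8) was at hand for 8 of the 9 members. The 250 bases before the start of *Atp2a2* (chr12:39733269-39733518, plus strand), *Pln* (chr20:33172244-33172493, plus strand) and *Jph2* (chr3:172477922-172478171, minus strand) read as follows, with every match to the motifs named below in capitals.
Atp2a2: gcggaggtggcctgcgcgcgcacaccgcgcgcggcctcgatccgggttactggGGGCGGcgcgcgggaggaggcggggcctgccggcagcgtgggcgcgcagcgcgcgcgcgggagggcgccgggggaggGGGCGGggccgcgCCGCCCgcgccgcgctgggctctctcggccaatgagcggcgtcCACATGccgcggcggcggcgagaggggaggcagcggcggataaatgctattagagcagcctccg
Pln: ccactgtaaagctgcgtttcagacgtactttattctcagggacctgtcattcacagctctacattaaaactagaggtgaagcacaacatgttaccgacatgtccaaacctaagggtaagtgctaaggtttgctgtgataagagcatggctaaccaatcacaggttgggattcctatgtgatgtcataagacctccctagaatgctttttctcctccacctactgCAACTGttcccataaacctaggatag
Jph2: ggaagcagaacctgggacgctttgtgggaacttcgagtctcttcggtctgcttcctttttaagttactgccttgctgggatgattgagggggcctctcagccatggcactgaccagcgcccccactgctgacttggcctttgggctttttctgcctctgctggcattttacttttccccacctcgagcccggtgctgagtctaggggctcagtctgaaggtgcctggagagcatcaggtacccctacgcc
The motifs searched on both strands were the TATA box (TATAAA), the GC box (GGGCGG), the E-box (CANNTG), the M-CAT element (CATTCC) and a GATA motif (AGATAA), and no 2 of the matches overlapped in these sequences. Of the 27457 rat promoters of this length, 13.1%, 32.4%, 65.2%, 11.8% and 10% held them in that order. The *Atp2a2* sequence held 3 GC boxes and 1 E-box and had a GC content of 80%, higher than in 98.9% of promoters. The *Pln* sequence held 1 E-box and had a GC content of 44%, higher than in 23.5% of promoters. None of these motifs was matched in the *Jph2* sequence (GC content 57.2%). The same held for the windows of *Trdn* and *Hrc*, which were higher in RV Sham-F as *Atp2a2* and *Pln* were. The windows of *Ryr2*, *Casq2* and *Slc8a1* each held at least 1 E-box. *Atp2a2* and *Pln*, which differed together, thus had start regions of unlike base composition. Such matches describe the letters of these windows and do not show binding.

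Some libraries stood apart from their groups. The libraries held between 6675287 and 19665439 counts, with a median of 13074486. On the first principal component of all tested genes but the members (47% of the variance), LV libraries of the F stage had group medians between 53.3 and 68.6, whereas the group medians of all other groups lay between -43.9 and -6.5. LV Sham-H replicates 4 and 5 and LV PAB-H replicate 2 lay toward the older LV libraries, LV PAB-F replicate 5 lay toward the younger ones, and LV AOB-H replicate 6, the shallowest library, was the fifth library more than 40 units from its group median. For some members and comparisons the value without these 5 libraries is also given. Along the same axis, log2 CPM relative to the mean over libraries fell with gene length in LV libraries of the F stage (median slopes of -0.11, -0.091 and -0.068 per log2 unit of length in LV Sham-F, LV PAB-F and LV AOB-F) and had median slopes between 0.0008 and 0.07 in the other groups. The list of 8 ventricular CM genes held group medians between 7.29% and 10.9% of all counts, whereas the atrial list (4 genes) held at most 0.859% and the skeletal muscle list (9 genes) at most 0.00143% in any library.

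Members were compared in level per kilobase of gene length, as counts scaled to a common effective library size (CPM) and divided by the length in kb. The pump gene *Atp2a2* was the highest with a mean of 3850.3 CPM per kb over the 82 libraries, rank 8 among all genes. Its inhibitor *Pln* followed with 1827 CPM per kb (rank 28) and the channel *Ryr2* with 711 (rank 78). *Casq2* (546) and *Jph2* (449) came next, then *Hrc* (193), *Slc8a1* (129) and *Trdn* (41.1 CPM per kb). Reads of the 2 splice forms of SERCA2 were not separated, and *Pln* overlaps *Cep85l* in RefSeq (GRCr8), which is also in the table. By the study's methods reads that fall on several genes were not counted, so *Pln* reads in a shared exon of the authors' annotation would be missing, which was not tested. Whether counting used the strand is not given in the sources used here. Sarcolipin was far below its partners with 13.8 CPM per kb, and a library held between 10 and 247 *Sln* counts against 99112 to 539021 *Atp2a2* counts. The 9 members together took a median of 2.34% to 2.66% of all counts in the LV groups of the F stage and of 4.49% to 5.0% in the other groups. When the 12 groups were ordered by mean CPM, the 3 LV groups of the F stage were the lowest for *Atp2a2*, *Pln*, *Ryr2*, *Casq2*, *Slc8a1*, *Trdn* and *Hrc*, and an RV group was the highest for each of these 7. For *Jph2*, LV Sham-F was the highest group and RV PAB-F the lowest. Any 2 groups next to each other in these orders overlapped in their libraries, for every member.

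**Figure D1:**
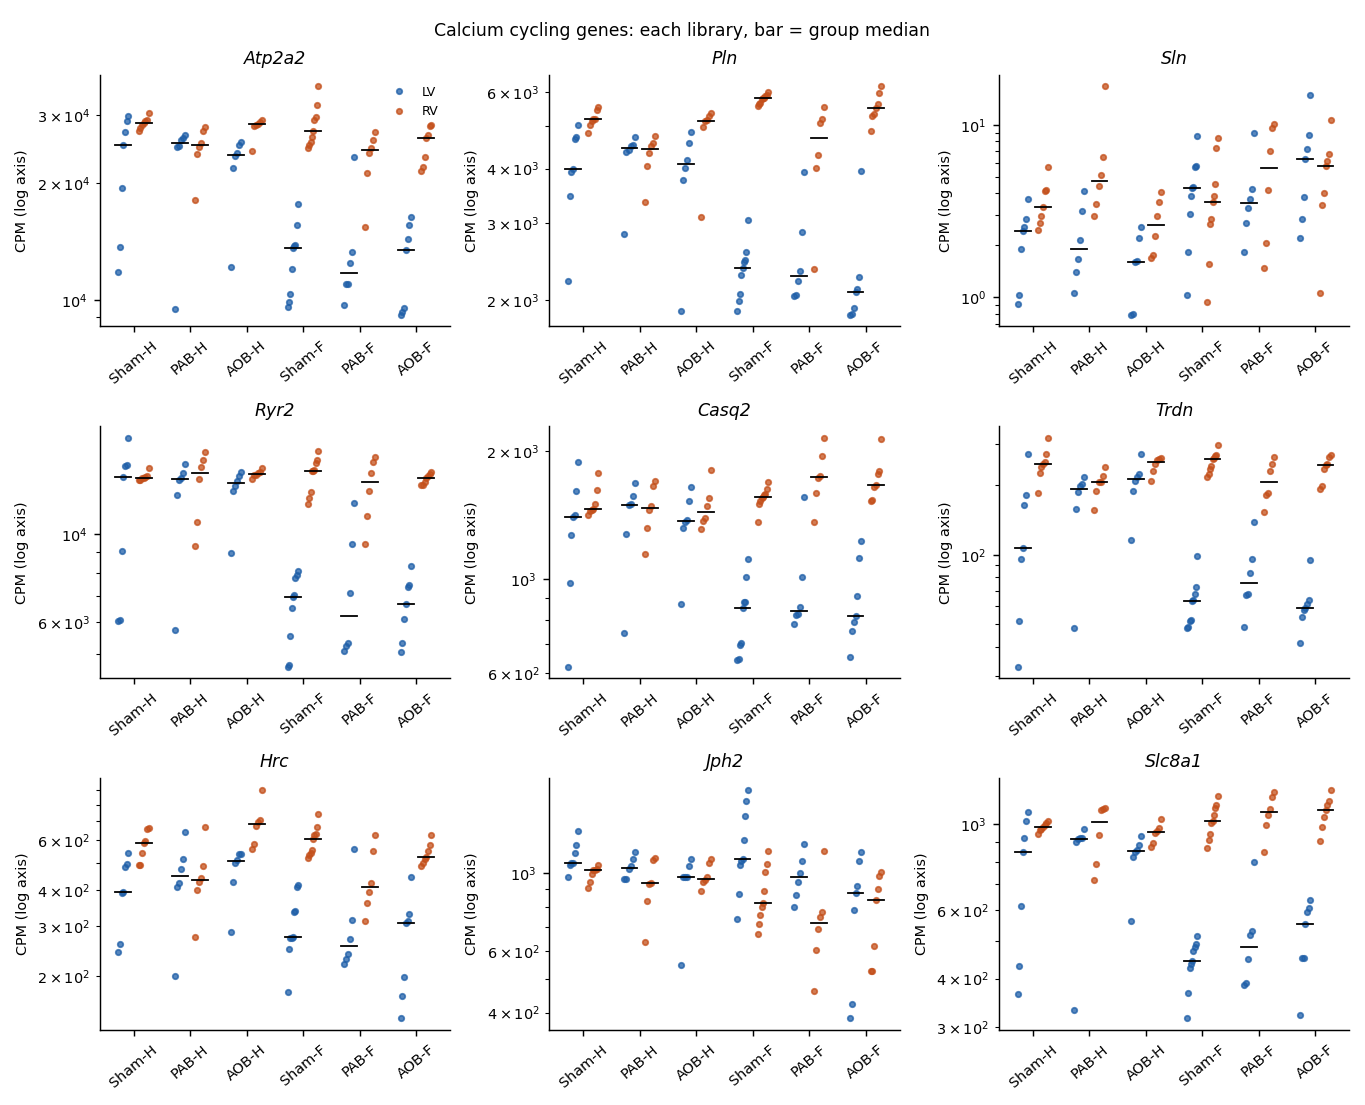
CPM of each member on a log axis, by condition (x axis) and ventricle (blue LV, orange RV). Each point is 1 library and each bar a group median. The LV libraries of Sham-F, PAB-F and AOB-F lie below the RV libraries for 7 members with few exceptions, whereas *Jph2* and *Sln* do not show this order.

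The first question was whether pressure load changed these genes in the loaded RV. PAB and AOB groups of 1 stage and ventricle were compared with the same sham libraries, and each comparison's own values are given. No member passed the test in PAB-H or PAB-F (edgeR quasi-likelihood test, Benjamini-Hochberg adjusted p under 0.05 over all genes tested), where 4.5% and 11.1% of all genes did. At PAB-F *Pln* had the lowest p of the members, and at PAB-H it came after *Sln*. The lowest, median and highest CPM of *Pln* were 4829.8, 5197 and 5544 in RV Sham-H and 3346, 4426 and 4759 in RV PAB-H. They were 5555, 5795 and 6005 in RV Sham-F and 2358, 4694 and 5531 in RV PAB-F. Every banded library was below every sham library at either stage. *Pln* was the 1 member of 9 for which the groups did not overlap, against 3.24% and 2.71% of all genes. The log2 fold change of *Pln* was -0.28 ± 0.16 (SE) at PAB-H with an adjusted p of 0.328, and -0.39 ± 0.16 at PAB-F with an adjusted p of 0.0864. These tests share 1 estimate of the spread over all 12 groups. Fitted to the compared groups alone, *Pln* passed at PAB-H (log2 fold change -0.28, adjusted p = 0.0369) and at PAB-F (-0.39, adjusted p = 0.0471), where 14.9% and 24.6% of the genes tested did.

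*Hrc* also passed at PAB-F in the fit to the compared groups alone (-0.43, adjusted p = 0.0255) and not in the fit over all groups (-0.44 ± 0.20, adjusted p = 0.137). Its CPM overlapped between RV Sham-F (520.1, 606 and 741) and RV PAB-F (314, 409.8 and 626). *Atp2a2* had lowest, median and highest CPM of 24743, 27296 and 35725 in RV Sham-F and 15412, 24349 and 27174 in RV PAB-F, which overlapped, with a log2 fold change of -0.30 ± 0.17 and an adjusted p of 0.257. At PAB-H its log2 fold change was -0.22 ± 0.18 with an adjusted p of 0.544. The release channel *Ryr2* differed by -0.06 ± 0.18 and -0.11 ± 0.17 at the 2 stages, and the exchanger gene *Slc8a1* by -0.04 ± 0.17 and 0.05 ± 0.16. For *Sln* the values were 0.85 ± 0.44 and 0.53 ± 0.41, with the largest SEs of the 9 members. In RV PAB-H, 1 library had 16.8 CPM of *Sln* and the other 5 had 2.94 to 6.51. The median log2 fold change over the 9 members was -0.11 at PAB-H and -0.24 at PAB-F, against 0.00 and 0.02 over all genes. Genes of the marker lists moved in the same libraries. In RV PAB-H 2 of 3 atrial, 1 of 7 endothelial, 1 of 7 mural and 0 of 8 macrophage genes tested were higher, and in RV PAB-F 2 of 3 atrial, 2 of 7 endothelial, 2 of 7 mural and 3 of 8 macrophage genes. The atrial list held a median of 0.0248% of counts in RV PAB-H (range 0.0145% to 0.0408%) and 0.0034% in RV Sham-H (0.00165% to 0.0044%). Mean CPM in RV Sham-H and RV PAB-H was 24.3 and 236 for *Nppa*, 7.23 and 11.8 for *Myl7*, and 1.66 and 8.1 for *Myl4*. The paper counts *Nppa* among the PAB-regulated genes of ventricular CMs, so this list does not mark atrial cells alone. Of the 7 fibroblast genes tested, 7 were higher in RV PAB-H and 4 in RV PAB-F, and the list of 8 (*Col1a2* had counts in 11 of 82 libraries, the others in all) held a median of 0.0226% of the counts in RV Sham-F and 0.0482% in RV PAB-F, with ranges of 0.0138% to 0.0479% and 0.0252% to 0.189%. The median share of the ventricular CM list was 9.51% and 8.56% in these 2 groups. Their part in the *Pln* and *Sln* values was not tested, and fewer cells of a type cannot be told apart from less RNA per cell in such bulk samples.

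In the loaded LV, 1 member changed. *Jph2* fell by 0.59 on the log2 scale (SE 0.16) in LV AOB-F, with an adjusted p of 0.0115, where 12.9% of all genes passed. Its lowest, median and highest CPM were 739, 1095 and 1732 in LV Sham-F (n = 9) and 385, 876 and 1147 in LV AOB-F (n = 7). The 2 groups overlapped: 2 banded libraries, replicates 6 and 7, had 424 and 385 CPM, and the other 5 lay between 783 and 1147 CPM, within the range of the sham libraries. Without replicate 6 the log2 fold change was -0.48 and without replicate 7 it was -0.45, and neither passed the test. Fitted to the 2 groups alone *Jph2* did not pass either (-0.63, adjusted p = 0.156), and 0.133% of the genes did. The same 2 libraries were the lowest of their group in *Atp2a2* (9142 and 9268 CPM) and in *Hrc*, and among its 3 highest in *Ryr2* and *Slc8a1*. In the RV, which the band did not load, the same 2 animals were also the 2 lowest of RV AOB-F in *Jph2* and *Atp2a2*. There they were the 2 highest in *Slc8a1* and were not the lowest in *Hrc*. Whether the low *Jph2* values went with the load or with these 2 animals was not tested. In LV AOB-F 2 of 7 endothelial and 3 of 8 macrophage genes were higher than in LV Sham-F, the macrophage list held a median of 0.0198% of counts (range 0.00473% to 0.0269%) against 0.00797% (0.00429% to 0.017%), and the ventricular CM list 7.29% against 9.12%. Their part in the *Jph2* value was not tested.

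The other members of the failing LV were close to sham. *Atp2a2* had CPM of 9580.5, 13615 and 17653 in LV Sham-F and 9142, 13464 and 16352 in LV AOB-F, with a log2 fold change of -0.04 ± 0.17 (adjusted p = 0.888). *Pln* differed by -0.03 ± 0.15, *Ryr2* by 0.01 ± 0.16 and *Trdn* by -0.03 ± 0.22. With 2 SEs on either side, the interval of the *Atp2a2* difference ran from -0.38 to 0.29 on the log2 scale. *Slc8a1* stood at 0.24 ± 0.15 (adjusted p = 0.304) and *Sln* at 0.62 ± 0.39 (adjusted p = 0.292). At the compensated stage (LV AOB-H) no member passed, where 0.0167% of all genes did. *Trdn* was the nearest, with CPM of 32.9, 107 and 272 in LV Sham-H and 116, 212 and 274 in LV AOB-H and a log2 fold change of 0.66 ± 0.24 (adjusted p = 0.137). It passed with the animal as a random block (0.91, adjusted p = 0.0486), where 1.53% of genes did, and stood at 0.22 (adjusted p = 1) without the 5 libraries, which include LV Sham-H replicates 4 and 5.

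The ventricle that the band did not load gave no member past the test in any of 4 comparisons. LV PAB-H, LV PAB-F and RV AOB-H had 0%, 0% and 0% of all genes called and RV AOB-F had 0.0669%. At an unadjusted p under 0.05, 305, 454, 171 and 517 genes and 0 members passed. Member log2 fold changes lay between -0.41 (*Sln* in RV AOB-H, SE 0.46) and 0.44 (*Sln* in RV AOB-F, SE 0.4). *Atp2a2* stood at 0.06 ± 0.17 in LV PAB-F and -0.17 ± 0.17 in RV AOB-F. The difference of the 2 ventricles' responses was tested directly. For PAB-F no member passed, with 0.351% of all genes called. *Pln* (RV response minus LV response -0.52 ± 0.22, adjusted p = 0.317) and *Trdn* (-0.67 ± 0.32, adjusted p = 0.366) had the lowest p. For AOB-F no member passed either, with 0% of genes called, and *Jph2* (LV response minus RV response) stood at -0.41 ± 0.23 (adjusted p = 0.551). The fall of *Jph2* in the failing LV was therefore not shown to differ from its value in the RV of the same animals (-0.18 ± 0.16).

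**Figure D2:**
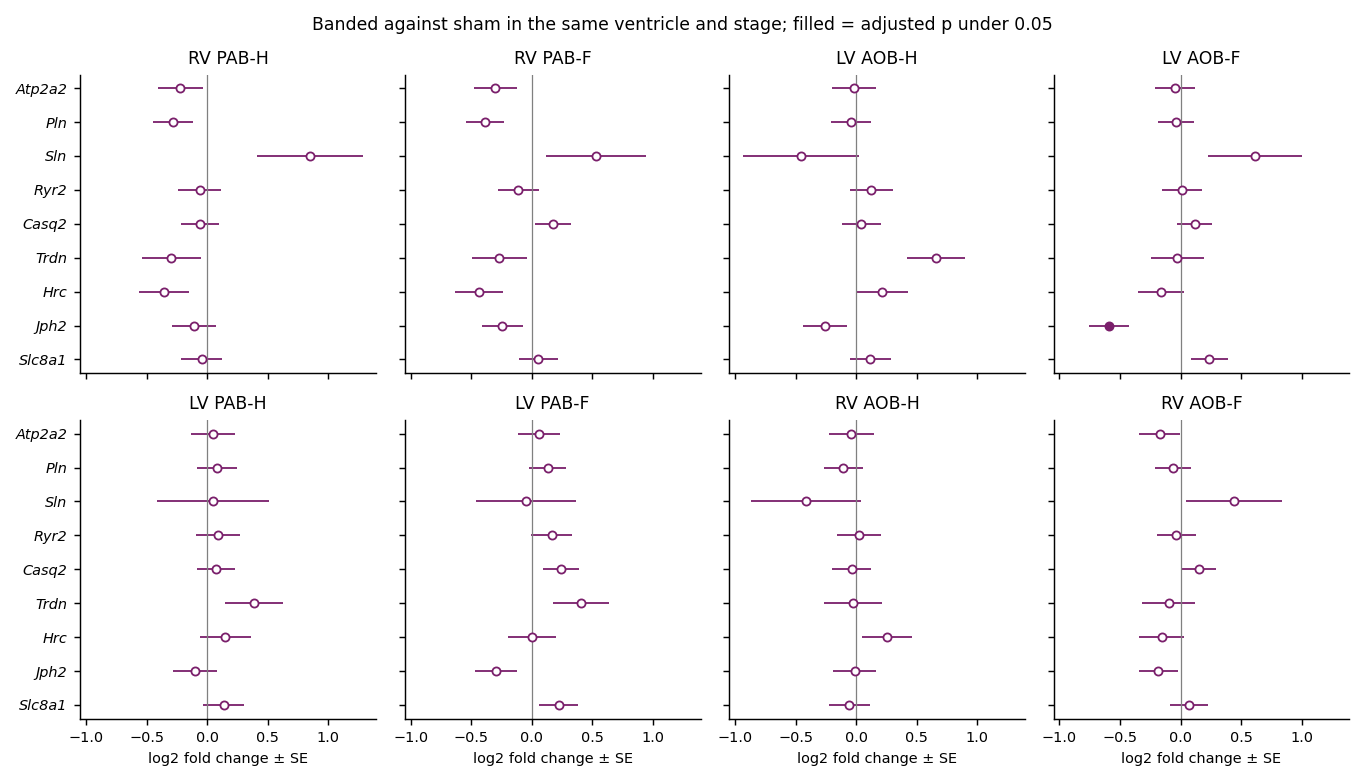
log2 fold change of each member in the 8 comparisons of banded with sham libraries, with bars of 1 SE. Filled points passed the test at an adjusted p under 0.05. *Jph2* in LV AOB-F (-0.59) is the 1 filled point, and *Sln* has the widest bars.

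The larger differences lay between the ventricles. In the sham hearts of the F stage, 8 of the 9 members differed between RV and LV, where 74.3% of all genes did. Of these, 7 were higher in the RV, where 35.6% of all genes were, and *Jph2* was lower. *Atp2a2* had CPM of 9580.5, 13615 and 17653 in LV Sham-F and 24743, 27296 and 35725 in RV Sham-F. Not one RV library reached down to the LV range, and the RV was 2.2-fold higher (log2 fold change 1.14 ± 0.16, adjusted p = 1.3e-09). *Pln* had 1891, 2364 and 3043 CPM in the LV and 5555, 5795 and 6005 CPM in the RV, 2.46-fold higher (1.30 ± 0.14, adjusted p = 5.32e-13). Pump and inhibitor were thus separated between the ventricles to a similar degree. *Ryr2* had 4639, 6932 and 8097 CPM in the LV and 11927, 14414 and 16209 CPM in the RV (2.15-fold, log2 fold change 1.11 ± 0.15, adjusted p = 1.77e-09). Triadin showed the largest difference of the 9. *Trdn* had 48.3, 63.2 and 98.7 CPM in the LV and 217, 258 and 298 CPM in the RV, 4-fold higher (2.0 ± 0.21, adjusted p = 3.34e-13).

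The luminal buffers *Casq2* (0.91 ± 0.14) and *Hrc* (0.98 ± 0.18) and the exchanger *Slc8a1* (1.22 ± 0.15) were also higher in RV Sham-F, with adjusted p of 1.12e-08, 1.11e-06 and 1.36e-11. For these 3 as for *Atp2a2*, *Pln*, *Ryr2* and *Trdn* the 9 RV and the 9 LV libraries did not overlap, against 41.8% of all genes. The RV was higher than the LV of the same animal in 9 of 9 animals for each of the 7. *Jph2* had CPM of 739, 1095 and 1732 in the LV and 671, 822 and 1155 in the RV, which overlapped, and was 1.38-fold lower in the RV (-0.46 ± 0.15, adjusted p = 0.00492), with 1 of 9 animals higher in the RV. *Sln* stood at -0.10 ± 0.37 (adjusted p = 0.816), with 3 of 9 animals higher in the RV. By the study's criteria (a change of more than 1 on the log2 scale, p of at most 0.01 and a mean above 50 normalized counts) 5 members passed, *Atp2a2*, *Pln*, *Ryr2*, *Slc8a1* and *Trdn*, where 27.7% of genes did. The median log2 fold change was 1.11 over the 9 members and -0.07 over all genes. The same LV libraries had the negative slope of level on gene length, and with offsets for gene length all 8 members still passed, with *Ryr2*, the longest, at 0.58 and *Atp2a2* at 0.89. Endothelial genes (6 of 7 tested) were lower in RV Sham-F, and the list held a median of 0.267% of counts in LV Sham-F and 0.0814% in RV Sham-F (ranges 0.17% to 0.325% and 0.061% to 0.105%), with counts of each gene in all 82 libraries. Mural (5 of 7), macrophage (5 of 8) and fibroblast genes (4 of 7) were lower as well. The ventricular CM list had medians of 9.12% and 9.51%, but its genes did not move together. Of its 8 tested genes 3 were higher in the RV and 3 lower. Mean CPM of *Myh6* was 27279 in LV Sham-F and 50293 in RV Sham-F, and that of *Myl3* was 13439 and 6657. The part of the marker lists in the result was not tested.

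**Figure D3:**
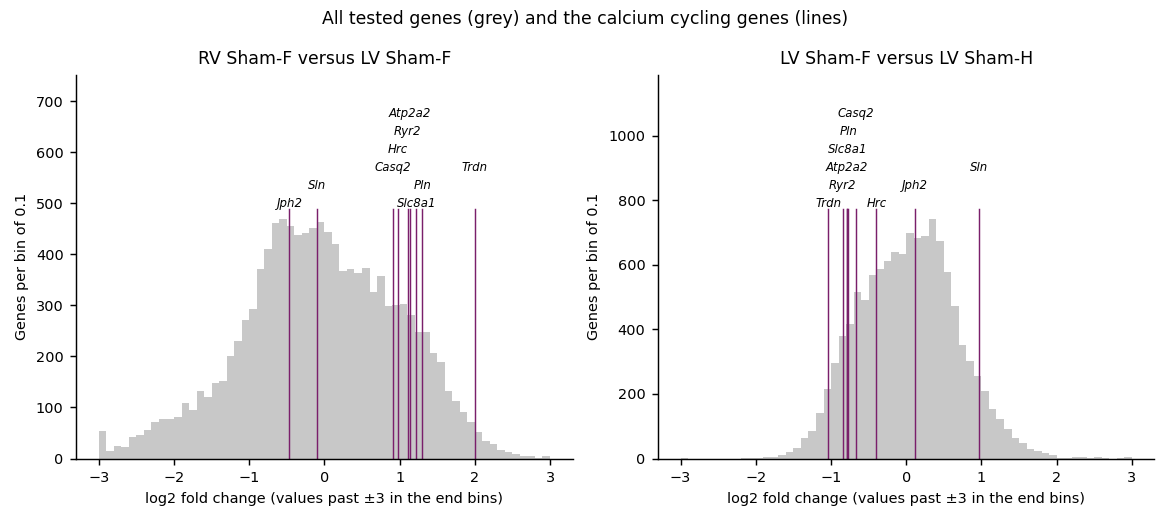
Histograms of the log2 fold change of all 11954 genes tested (grey, bins of 0.1) in RV against LV of Sham-F (left) and in LV Sham-F against LV Sham-H (right), with a line for each member. On the left, 7 members lie between 0.91 and 2.0, and on the right, 6 lie between -1.04 and -0.67. Both grey distributions are wide.

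In the sham hearts of the H stage the ventricles differed less. *Trdn* was the 1 member past the test, with CPM of 32.9, 107 and 272 in LV Sham-H and 185, 247 and 319.9 in RV Sham-H, a log2 fold change of 0.95 ± 0.23 and an adjusted p of 0.00336, where 21% of all genes passed. Its groups overlapped, and the RV was higher in 7 of 7 animals. It remained past the test without the 5 libraries (0.61, adjusted p = 0.029), where 4.08% of genes did, and missed it in the fit to the 2 groups alone (adjusted p = 0.0715). With the animal as a block, 5 members passed in either fit, with 34.4% of all genes called for the random and 32.5% for the fixed block. They were *Atp2a2* (random block 0.44, adjusted p = 0.0245), *Pln* (0.42), *Slc8a1* (0.49), *Hrc* (0.57) and *Trdn* (1.22). These values rest in part on LV Sham-H replicates 4 and 5, which had 11771 and 13719 CPM of *Atp2a2* against 19419 to 29834 CPM in the other 5. Without the 5 libraries *Atp2a2* stood at 0.14 (adjusted p = 0.619) and *Ryr2* at 0.00 (adjusted p = 0.997), *Pln* at 0.23, *Slc8a1* at 0.14 and *Hrc* at 0.33, with no block.

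Whether the ventricles differed more at the F than at the H stage was tested as a difference of differences. It passed for 6 members, all with a larger RV excess in Sham-F, where 41.6% of all genes passed and 23% in this direction. They were *Trdn* (1.06 ± 0.31, adjusted p = 0.00526), *Pln* (0.92 ± 0.21, 0.000748), *Ryr2* (0.86 ± 0.23, 0.00264), *Slc8a1* (0.84 ± 0.22, 0.002), *Atp2a2* (0.77 ± 0.23, 0.00674) and *Casq2* (0.69 ± 0.20, 0.00547), with log2 differences, SEs and adjusted p in that order. These 6 passed under all 9 alternatives and with each of the 32 libraries left out in turn, and *Hrc* passed as well without the 5 libraries. *Hrc* (0.46 ± 0.27, adjusted p = 0.156), *Jph2* (-0.30 ± 0.23) and *Sln* (-0.83 ± 0.57) did not pass.

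The difference between the stages lay in the LV. In the RV no member differed between Sham-F and Sham-H, where 0.0502% of all genes did, and member log2 fold changes lay between -0.19 and 0.15. *Atp2a2* had CPM of 27295, 28584 and 30448 in RV Sham-H and 24743, 27296 and 35725 in RV Sham-F (-0.01 ± 0.17). For *Pln* every RV Sham-F library lay above every RV Sham-H library (medians 5795 and 5197 CPM), as for 0.385% of genes, with a log2 fold change of 0.15 ± 0.15 that did not pass. In the LV 7 members differed, where 57.4% of all genes did. Of these, 6 were lower in LV Sham-F, where 29.6% of genes were. *Atp2a2* fell by 0.79 on the log2 scale (SE 0.16, adjusted p = 5.5e-05), from CPM of 11771, 25184 and 29834 in LV Sham-H to 9580.5, 13615 and 17653 in LV Sham-F. The groups overlapped through LV Sham-H replicates 4 and 5. *Ryr2* (-0.84 ± 0.16, adjusted p = 1.63e-05), *Slc8a1* (-0.78 ± 0.15, 2.03e-05), *Pln* (-0.77 ± 0.15, 1.35e-05), *Casq2* (-0.67 ± 0.14, 8.16e-05) and *Trdn* (-1.04 ± 0.22, 5.78e-05) were lower as well. *Hrc* missed the threshold (-0.40 ± 0.19, adjusted p = 0.0631) and *Jph2* stood at 0.11 ± 0.16 (adjusted p = 0.573). By the study's criteria *Trdn* alone passed, with 8.05% of genes. Of the markers, 5 of 7 mural, 5 of 8 macrophage, 3 of 7 fibroblast and 2 of 7 endothelial genes were higher in LV Sham-F. In these 4 lists 0 genes were lower. Of the 8 ventricular CM genes tested 2 were higher and 3 lower, and of the 3 atrial genes tested 1 was higher. The endothelial list held a median of 0.146% of counts in LV Sham-H (range 0.101% to 0.26%) and 0.267% in LV Sham-F, the slope on gene length also differed between these groups, and the part of either was not tested. With gene length offsets *Ryr2* stood at -0.40 and *Atp2a2* at -0.58.

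*Sln* moved the other way. It had CPM of 0.916, 2.43 and 3.71 in LV Sham-H and 1.03, 4.29 and 8.55 in LV Sham-F, which overlapped, and a log2 fold change of 0.97 ± 0.41 with an adjusted p of 0.0401. This call did not hold without the filter on low counts, with gene length offsets (0.53, adjusted p = 0.268), with the random block (0.91, adjusted p = 0.0806) or without the 5 libraries (1.0, adjusted p = 0.0611). Without these libraries 7 members passed in the LV, with 65.5% of genes called: *Hrc* passed in place of *Sln*, and the others were further apart, with *Atp2a2* at -1.04, *Ryr2* at -1.12 and *Trdn* at -1.40. The sham groups of the 2 stages differ in age and in the time since surgery, and these cannot be told apart.

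The banded hearts were compared in the same way, as comparisons added after the data were seen. Within failing PAB-F hearts 8 members differed between RV and LV, where 61.1% of all genes did, 7 of them higher in the RV (32.1% of genes), and *Slc8a1* and *Trdn* did not overlap (23.2% of genes). *Atp2a2* had CPM of 9682, 11738 and 23377 in LV PAB-F and 15412, 24349 and 27174 in RV PAB-F (0.78 ± 0.19, adjusted p = 0.000345). The highest LV library was replicate 5, which is among the 5, and without these *Atp2a2* stood at 1.02. *Jph2* (-0.41 ± 0.19, adjusted p = 0.0497) then missed the threshold (adjusted p = 0.0892), with 65.4% of genes called. It passed in 3 of the 12 fits that left out 1 library each, and *Hrc* in 7. *Slc8a1* passed the study's criteria in PAB-F with *Trdn*, as 17% of genes did. Within failing AOB-F hearts 7 members were higher in the RV, where 67.1% of all genes differed and 32% were higher. None of the 7 overlapped between the ventricles (30.3% of genes). *Atp2a2* had 9142, 13464 and 16352 CPM in the LV and 21589.7, 26203 and 28307 CPM in the RV (1.01 ± 0.18, adjusted p = 1.13e-06), and *Trdn* again showed the largest difference (1.93 ± 0.24, adjusted p = 3.34e-10). *Jph2* (-0.06 ± 0.17) and *Sln* (-0.27 ± 0.41) did not pass. By the study's criteria *Atp2a2*, *Pln*, *Ryr2*, *Slc8a1* and *Trdn* passed, with 21.9% of genes. Over the 22 animals of the F stage, the RV was higher than the LV in 22 for each of the 7 members, in 4 for *Jph2* and in 9 for *Sln*.

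In the compensated banded hearts no member passed, with 0.125% of all genes called in PAB-H and 7.98% in AOB-H. *Atp2a2* stood at 0.10 ± 0.19 in PAB-H and 0.34 ± 0.19 in AOB-H. With the animal as a fixed block *Sln* passed in PAB-H (1.39, adjusted p = 0.0441), where 1.51% of genes did. With the random block *Hrc* passed in AOB-H (0.57, adjusted p = 0.0386), where 10.4% did. *Sln* had CPM of 1.06, 1.9 and 4.11 in LV PAB-H and 2.94, 4.75 and 16.8 in RV PAB-H, and the unblocked log2 fold change was 1.53 ± 0.47 (adjusted p = 0.171). Without the 5 libraries, and with no block, *Sln* stood at 1.64 in PAB-H (adjusted p = 0.137) and *Hrc* at 0.45 in AOB-H (adjusted p = 0.2).

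**Figure D4:**
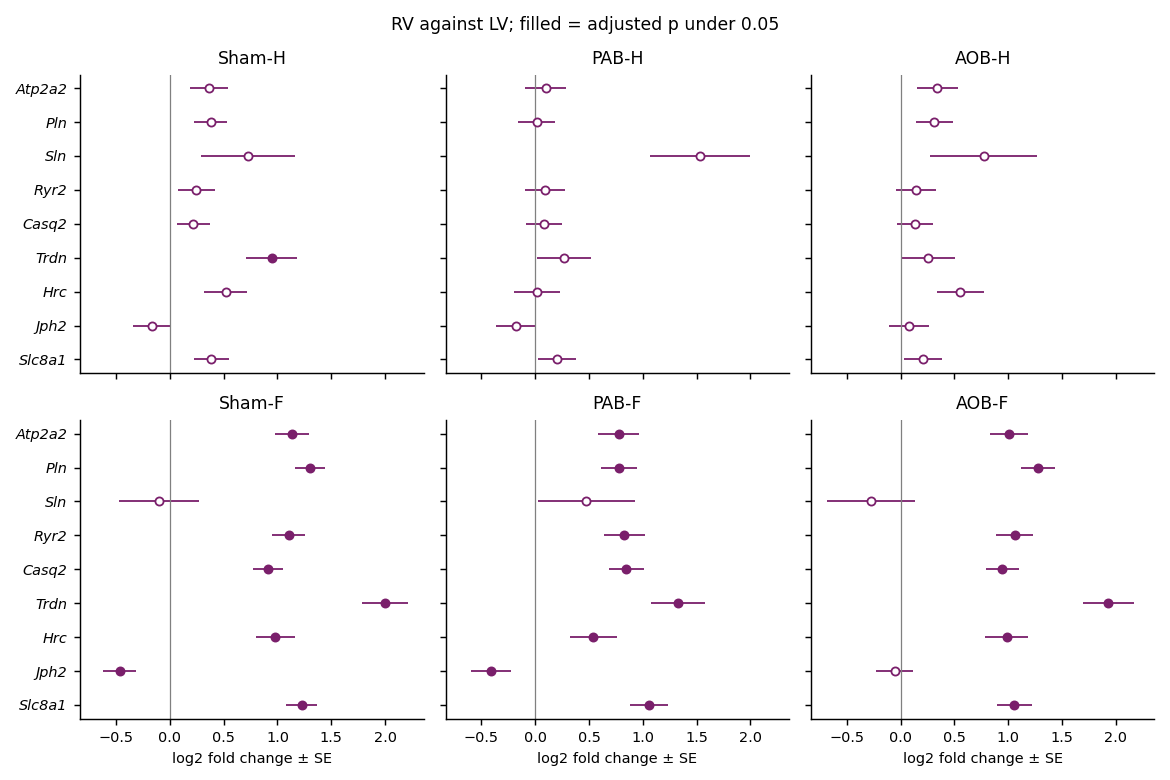
log2 fold change of RV against LV for each member in the 6 conditions, with bars of 1 SE. Filled points passed the test at an adjusted p under 0.05. In the H panels *Trdn* in Sham-H is the 1 filled point, and in the F panels 7 members lie to the right of 0 and are filled. *Jph2* is filled to the left of 0 in Sham-F (-0.46) and PAB-F (-0.41).

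The balance of the members within a library does not depend on how libraries are scaled, and 4 ratios of raw counts were compared on the log2 scale in 12 comparisons by two-sided exact permutation tests. The ratios hold no offset for gene length, and their genes differ in length. *Sln* has 298, *Pln* 2254, *Casq2* 2457, *Atp2a2* 5691, *Slc8a1* 6343 and *Ryr2* 16285 bases. The part of the slope on gene length in the ratios was not tested. None of the 48 passed after Benjamini-Hochberg adjustment, and 9 had an unadjusted exact p under 0.05. The *Pln* to *Atp2a2* ratio, inhibitor to pump, was -2.44 ± 0.41 (mean ± SD, n = 9) in LV Sham-F and -2.29 ± 0.20 in RV Sham-F, so that the ventricles differed by 0.16 (exact permutation p = 0.316). This test treats the ventricles of 1 animal as independent, and with the signs of the 9 differences within animals exchanged instead, the exact permutation p was 0.383. In RV PAB-F the same ratio was -2.41 ± 0.24 (exact permutation p = 0.28 against RV Sham-F) and in LV AOB-F -2.46 ± 0.44 (exact permutation p = 0.943 against LV Sham-F). From RV Sham-H to RV Sham-F this ratio rose by 0.175 (exact permutation p = 0.0432, adjusted p = 0.23). The *Slc8a1* to *Atp2a2* ratio, exchanger to pump, gave the lowest p of the 48. It was -4.79 ± 0.07 in RV Sham-F and -4.42 ± 0.36 in RV PAB-F, a difference of 0.36 (exact permutation p = 0.0028, adjusted p = 0.134). In RV PAB-H it differed from sham by 0.17 (exact permutation p = 0.0157, adjusted p = 0.182). The ratio also stood above sham in ventricles that the band did not load, by 0.11 (exact permutation p = 0.0291, adjusted p = 0.182) in LV PAB-H and by 0.24 (exact permutation p = 0.0258, adjusted p = 0.182) in RV AOB-F, and in the loaded LV by 0.18 (exact permutation p = 0.028, adjusted p = 0.182) in AOB-H and 0.28 (exact permutation p = 0.234, adjusted p = 0.61) in AOB-F. In LV PAB-F and RV AOB-H it stood at 0.17 (exact permutation p = 0.263) and -0.02 (exact permutation p = 0.664) relative to sham. The mean *Sln* to *Atp2a2* ratio was higher in LV Sham-F (-11.74 ± 0.97) than in LV Sham-H (-13.36 ± 1.07), by 1.61 (exact permutation p = 0.0083, adjusted p = 0.182). In RV PAB-H this ratio stood above RV Sham-H by 0.857 (exact permutation p = 0.0303, adjusted p = 0.182). The *Casq2* to *Ryr2* ratio, buffer to channel, differed between RV PAB-F and RV Sham-F by 0.29 (exact permutation p = 0.0709). Between RV and LV of Sham-F it differed by -0.19 (exact permutation p = 0.161, within animals 0.0195, adjusted 0.162). The *Sln* to *Atp2a2* ratio differed there by -1.31 (exact permutation p = 0.018, within animals 0.0039, adjusted 0.0938). For *Slc8a1* to *Atp2a2* the difference was 0.08 (exact permutation p = 0.454, within animals 0.43).

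**Figure D5:**
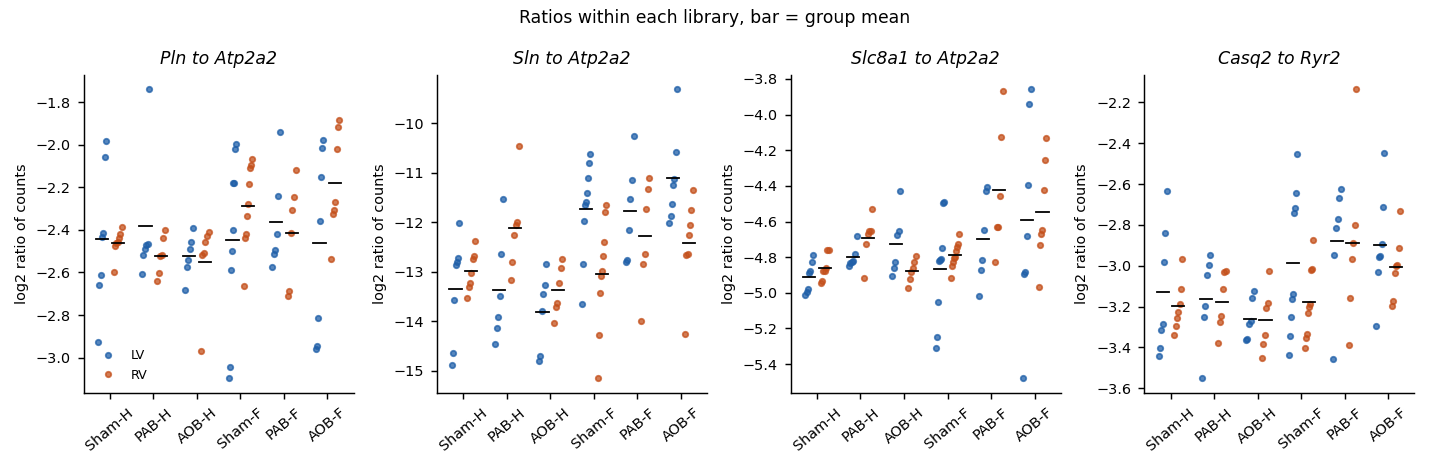
log2 ratio of raw counts within each library (points; blue LV, orange RV) for 4 pairs of members by condition, with bars at the group means. The mean *Slc8a1* to *Atp2a2* ratio lies above sham in the RV of PAB-F (-4.42 against -4.79), with overlapping libraries (-4.83 to -3.87 against -4.92 to -4.67). The *Pln* to *Atp2a2* groups overlap throughout.

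Other calcium genes were followed in 4 lists, and up to 3 called genes of the smallest p are named for each list and comparison. In RV PAB-H, RV PAB-F and LV AOB-F 4.5%, 11.1% and 12.9% of all genes passed. Of the 18 tested genes of the SR pump and junction list, 1 was higher and 0 lower in RV PAB-H, *Itpr3* (0.75 ± 0.24), an IP3 receptor. In RV PAB-F 1 was higher, *Casq1* (0.64 ± 0.17), the skeletal muscle calsequestrin, and 1 lower, *S100a1* (-0.60 ± 0.18), a calcium sensor that binds the pump and the release channel. In LV AOB-F 2 were higher, *Jph1* (0.59 ± 0.17), the paralog of *Jph2*, among them, and 1 was lower, *S100a1* (-0.64 ± 0.16). All list calls given here are from the fit over all groups. In the fit to the LV AOB-F and LV Sham-F libraries alone, 0.133% of all genes passed. Of the 17 sarcolemmal genes tested, 2 were higher in RV PAB-H, *Atp2b4* (0.94 ± 0.25), a plasma membrane calcium pump, and *Cacna1g* (0.85 ± 0.25), a T-type calcium channel, and 1 was lower, *Cacna1h* (-0.80 ± 0.23), another T-type channel. In RV PAB-F 3 were higher and 1 lower, with *Cacna1g* (1.61 ± 0.23), *Orai2* (1.47 ± 0.41) and *Slc8a2* (1.30 ± 0.41) as the 3 of the smallest p. *Cacna1g* rose from 20.9 ± 3.94 to 64 ± 59.5 CPM (SD). The other 2 were low, *Orai2* with 0.732 ± 0.242 and 2.06 ± 1.4 CPM and *Slc8a2* with 0.634 ± 0.225 and 1.6 ± 0.965 CPM in RV Sham-F and RV PAB-F. In LV AOB-F 1 was lower, *Orai3* (-0.35 ± 0.12). Of the 17 kinase and phosphatase genes *Ppp1r1a* (-0.91 ± 0.20), the inhibitor 1 of protein phosphatase 1, was the 1 called gene in RV PAB-H, and also in RV PAB-F (-1.13 ± 0.20). In LV AOB-F 2 were higher, *Ppp2ca* (0.75 ± 0.16) and *Ppp2cb* (0.25 ± 0.07), catalytic subunits of protein phosphatase 2A. Of the 7 mitochondrial genes tested *Slc8b1* (0.77 ± 0.24), the mitochondrial sodium-calcium exchanger, was higher in RV PAB-H and in RV PAB-F (1.02 ± 0.22), and 0 passed in LV AOB-F.

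Between the ventricles of Sham-F 74.3% of all genes passed and 35.6% were higher in the RV, 21% passed between the ventricles of Sham-H, and 57.4% passed between LV Sham-F and LV Sham-H (29.6% lower in Sham-F). In Sham-F, 7 of the SR pump and junction list were higher in the RV and 7 lower. *Akap6* (1.44 ± 0.15), an anchor of protein kinase A, was higher, whereas *Fkbp1a* (-0.77 ± 0.09), which binds ryanodine receptors, and *Atp2a3* (-1.99 ± 0.26), the pump SERCA3, were lower. Of the sarcolemmal list 5 were higher, among them *Cacna2d1* (1.63 ± 0.16) and *Cacnb2* (1.40 ± 0.15), auxiliary subunits of the L-type channel, and *Atp2b1* (1.19 ± 0.16), and 10 were lower. Kinases and phosphatases were higher in 10 and lower in 1, with *Camk2d* (1.28 ± 0.14), the main cardiac calmodulin kinase, *Ppp1r3a* (1.97 ± 0.23) and *Ppp2ca* (1.28 ± 0.16) first. Mitochondrial genes were higher in 4, *Micu2* (1.55 ± 0.19) and *Micu3* (1.25 ± 0.15) among them, and lower in 1, *Slc8b1* (-1.68 ± 0.20). In Sham-H 0 SR genes were higher in the RV and 4 lower, led by *Atp2a3* (-1.14 ± 0.30), *Itpr3* (-0.80 ± 0.23) and *Fkbp1a* (-0.36 ± 0.10). Of the sarcolemmal genes 4 were higher and 2 lower, with *Cacna1d* (1.75 ± 0.26), an L-type channel, *Cacna2d1* (0.71 ± 0.18) and *Bin1* (-0.57 ± 0.18), which shapes transverse tubules, first. Of the kinases and phosphatases 3 were higher, *Ppp1cb* (0.80 ± 0.24), *Camk2d* (0.50 ± 0.15) and *Ppp1r3a* (0.72 ± 0.25), and 1 mitochondrial gene was, *Micu2* (0.62 ± 0.21). From LV Sham-H to LV Sham-F, 5 SR genes rose and 5 fell, *Akap6* (-0.98 ± 0.16) and *Atp2a3* (1.23 ± 0.28) among them. Of the sarcolemmal genes 7 rose and 3 fell, with *Cacna2d1* (-0.80 ± 0.17), *Orai1* (0.79 ± 0.17), a store-operated channel, and *Bin1* (0.74 ± 0.17) first. Of the kinases and phosphatases 2 rose and 10 fell, with *Ppp2ca* (-1.05 ± 0.16), *Ppp1cc* (-0.52 ± 0.09) and *Prkacb* (-0.58 ± 0.11), a catalytic subunit of protein kinase A, first. Of the mitochondrial genes 1 rose, *Slc8b1* (1.07 ± 0.21), and 4 fell, *Micu2* (-0.90 ± 0.19) and *Letm1* (-0.44 ± 0.11) among them. Between the RV sham groups 0 genes of the 4 lists passed, where 0.0502% of all genes did. The median log2 fold changes of RV against LV in Sham-F were 0.01, -0.55, 0.50 and 0.25 for the SR, sarcolemmal, kinase and phosphatase, and mitochondrial lists, beside 1.11 for the members and -0.07 for all genes.

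Over the 82 libraries the members also moved with one another, as a description, since the points share the LV libraries of the F stage. Pearson r of log2 CPM was 0.954 between *Ryr2* and *Slc8a1*, 0.909 between *Atp2a2* and *Ryr2*, 0.878 between *Atp2a2* and *Pln*, 0.142 between *Atp2a2* and *Jph2* and -0.134 between *Atp2a2* and *Sln*. The 3 tested genes most like each member were *Acsl1* (r = 0.974), *Sspn* and *Fyco1* (0.97 each) for *Atp2a2*, *Ube2b* (0.972), *Lrrc39* (0.961) and *RGD1306739* (0.959) for *Pln*, and *Kif1b* (0.968), *Vps13d* (0.967) and *Akap6* (0.964) for *Ryr2*. For *Casq2* they were *Lman1* (0.951), *Calu* (0.947) and *Tmx4* (0.942), for *Slc8a1* *Slmap* (0.976), *Phtf2* (0.967) and *Lrba* (0.966), and for *Trdn* *Matr3* (0.974), *Pcm1* and *Smc6* (0.973 each). *Hrc* was most like *Cdnf* (0.92), *Timm44* and *Acsl1* (0.91 each), and *Jph2* most like *Trak1* (0.896), *Dfnb31* and *Tuba8* (0.889 each). *Sln* reached no more than 0.624 (*Cds1*), 0.602 (*Ephx4*) and 0.586 (*Camk2b*).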

How the data were processed

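CM RNA depleted of ribosomal RNA was sequenced from 82 ventricles of 41 animals. Per the labels and the submitters' processing notes, the authors trimmed reads with Trim Galore, aligned them with STAR to the UCSC Rnor6.0 build, counted reads per gene with featureCounts and used DESeq2 1.28.1. The table deposited by the authors holds raw counts, a normalized signal per gene (counts divided by 1 size factor per library, 0.639 to 1.57) and FPKM values, from which gene lengths were recovered by the ratio to the counts. Tests used the raw counts. Columns that map to no sample numbered 0, the study's methods state that reads on several genes were not counted, and whether counting used the strand is not given in the sources used here.

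Groups came from the labels. Counts were fitted with edgeR 4.0.16 in R 4.3.3 (TMM scaling, filterByExpr, quasi-likelihood test, 12 groups, no covariate), and a gene was called at a Benjamini-Hochberg adjusted p under 0.05 over all 11954 genes tested. Depth ran from 6675287 to 19665439 counts per library. The common biological coefficient of variation was 0.244, and log2 CPM values for correlations used a prior count of 2. Log2 ratios of members were compared with exact permutation tests of libraries, and between ventricles also within animals. P-values of the main fit measure the spread between libraries within groups, pooled over the 12 groups. This fit treats the 82 libraries as independent and does not use the pairing of ventricles by animal. The scripts were tested on simulated data. Summaries and plots used Python 3.11.15, pandas 2.3.3, numpy 2.4.6 and matplotlib 3.10.9.

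Both ventricles of a replicate number come from 1 animal by the labels. Deviations from the group means correlated within animals (medians of 0.186 to 0.297 by condition, lowest pair -0.141) more than between animals (medians of -0.0686 to -0.0142), so the animal was also fitted as a block, random with limma 3.58.1 (correlation 0.221) or fixed in edgeR.

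The other alternatives were no filter on low counts, DESeq2 1.42.0 (size factors, or its Wald test), sex as a covariate, offsets for gene length (lowess span 0.3), the compared groups alone, the study's criteria, and each library left out. Leaving out the 5 libraries more than 40 units from their group median on the first principal component, and comparing ventricles within banded hearts, were chosen after seeing the data.

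The members and lists were chosen with earlier results of these data known. Beside the members, the text names up to 3 called genes of the smallest p for each pathway list in each comparison of a directly loaded ventricle or of sham groups, and the 3 genes of the highest r with each member. A gene that this rule selects is not reported here. Promoter sequences are from RefSeq, build GRCr8.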

Additional observations from a re-analysis of the deposited data

Results flagged for a closer look

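In 108 groups of a member's CPM values, 22 values lay farther from the rest of their group than Dixon's criterion allows at the 95% level, which chance gives in about 1 of 20 groups. The groups are not independent, since 1 library can stand apart for several members. Of the 22 values, 5 came from LV PAB-H replicate 2, which had 9468 CPM of *Atp2a2* (others 24768 to 26638), 2838 CPM of *Pln* (others 4366 to 4732), 5740.3 CPM of *Ryr2* (others 12538 to 14985), 332 CPM of *Slc8a1* (others 899 to 976) and 48.1 CPM of *Trdn* (others 158 to 216). A further 5 came from LV AOB-H replicate 6, with 12117 CPM of *Atp2a2* (others 21977 to 25511), 1887 CPM of *Pln* (others 3776 to 4866), 8954 CPM of *Ryr2* (others 12879 to 14358), 563 CPM of *Slc8a1* (others 825 to 932) and 548 CPM of *Jph2* (others 974 to 1096). For LV PAB-F replicate 5, 4 values stood above the others, with 23377 CPM of *Atp2a2* (others 9682 to 13325), 1557 CPM of *Casq2* (others 781 to 1011), 798 CPM of *Slc8a1* (others 385 to 531) and 559 CPM of *Hrc* (others 221 to 314). These 3 libraries are among the 5 that lay far from their groups on the first principal component. RV AOB-H replicate 6 had 24318 CPM of *Atp2a2* (others 28129 to 29252) and 3107 CPM of *Pln* (others 4978 to 5355). Single values also stood apart: LV AOB-F replicate 5 had 3947 CPM of *Pln* (others 1850.4 to 2264), RV PAB-H replicate 1 had 16.8 CPM of *Sln* (others 2.94 to 6.51), LV PAB-F replicate 3 had 8.93 CPM of *Sln* (others 1.83 to 4.24). RV Sham-H replicate 2 had 14704 CPM of *Ryr2* (others 13655 to 13997), LV Sham-F replicate 4 had 98.7 CPM of *Trdn* (others 48.3 to 72.2), and LV AOB-F replicate 1 had 94.9 CPM of *Trdn* (others 41.7 to 64.1).

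The difference between RV and LV was itself different at the 2 stages for 6 members by the edgeR quasi-likelihood test of the difference, with the RV excess larger in Sham-F than in Sham-H. On the log2 scale it was larger by 0.77 for *Atp2a2*, 0.92 for *Pln*, 0.86 for *Ryr2*, 0.69 for *Casq2*, 0.84 for *Slc8a1* and 1.06 for *Trdn*.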

How the results depend on the processing

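The count of members past the test moved with the fit in some comparisons. Fitted to the compared groups alone, it was 1 in place of 0 for RV PAB-H, 2 in place of 0 for RV PAB-F and 0 in place of 1 for LV AOB-F, where 0 also passed the study's criteria. With the replicate number (the animal) as a paired block, LV AOB-H gave 1 with the random block, RV against LV of Sham-H gave 5 with either block, RV against LV of AOB-H gave 1 with either block, and RV against LV of PAB-H gave 1 with the fixed block. The block moved no other count by more than 1.5 times. RV against LV of Sham-H gave 2 with DESeq2 size factors, sex, gene length or the DESeq2 Wald test, and 0 by the study's criteria. These criteria gave 5 in Sham-F, 2 in PAB-F and 1 in PAB-H between the ventricles, and 1 for LV Sham-F against LV Sham-H. They add a fold threshold and a floor on the mean count and use an unadjusted p. The cause of these moves was not tested. With 1 library left out, the count ranged from 0 to 1 for LV AOB-F (0 without replicate 6 or 7), from 1 to 4 for RV against LV of Sham-H, from 6 to 8 for LV Sham-F against LV Sham-H and from 6 to 7 for RV against LV of PAB-F, and the ratio comparisons that passed ranged from 0 to 1 (1 without RV AOB-F replicate 4 or RV PAB-F replicate 3). No called value changed direction. Of 121 member values that passed in no fit, 49 changed sign in at least 1. *Sln*, at 10 to 247 counts per library, is the member whose depth limits its values most.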
